A study of Homo sapiens with 6 samples.

Results

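The genes described here are detoxification enzymes picked by gene symbol, which gave 20 glutathione transferase genes and UGT8. They are 21 of the 14884 genes that carried a symbol on the arrays, each read by 1 feature (a group of probes summarised to 1 value). The symbol rule also covered cytochromes P450, aldo-keto reductases and sulfotransferases, for which 0 genes were found in the annotation used, so those families were not analysed here. RNA came from floating sphere cultures of SW620, a colorectal cancer line from a lymph node metastasis, and of SW480, a colorectal cancer line from a primary tumour. The labels give no genetic change and no drug treatment for either line, and both were grown without serum, with growth factors added. There were 3 arrays for SW620 and 3 for SW480, which the submitters call technical replicates, so the p-values below measure the spread between such arrays and not between separate cultures. The stated aim was to compare what the submitters call the TIC compartment, an abbreviation that usually stands for tumour-initiating cells. Each line is a single established culture, and neither an adherent culture nor a sorted fraction was among the samples, so a difference cannot be assigned to those cells.

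Glutathione transferases join the tripeptide glutathione to reactive, often fat-soluble compounds, which makes them easier to export from the cell, and several also reduce peroxides or oxidised vitamin C. The cytosolic enzymes fall into classes named by Greek letters, and genes of the alpha, mu, omega and theta classes lie in clusters of related copies. In the gut lining they form part of the barrier against food-borne electrophiles, and the pi enzyme GSTP1 is well known for its abundance in many tumours. UGT8 belongs to the UDP-glycosyltransferases by name and fold. Unlike the drug-conjugating members of that family, it transfers galactose to ceramide and so makes galactosylceramide, a lipid best known from myelin.

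The 250 bases before the start site are shown for the 4 genes on which the results below turn most. GSTO2 and GSTO1 are neighbours on chromosome 10 that changed in opposite directions, GSTA4 had the largest fall outside that pair, and GSTP1 had the brightest feature of the family. The sequences are from RefSeq on GRCh38.p14, written 5′ to 3′ on the strand of the gene, with the start site given by that table. Capitals mark matches on either strand to the core of the antioxidant response element (TGACNNNGC), the core of the xenobiotic response element (GCGTG), the AP-1 site (TGANTCA) or the CCAAT box (CCAAT).
GSTO2, chr10:104268934-104269183, plus strand: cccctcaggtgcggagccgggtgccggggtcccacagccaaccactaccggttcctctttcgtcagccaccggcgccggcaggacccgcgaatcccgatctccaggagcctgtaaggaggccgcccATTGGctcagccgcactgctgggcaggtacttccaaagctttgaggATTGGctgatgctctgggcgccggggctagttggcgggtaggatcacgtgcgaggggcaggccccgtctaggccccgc
GSTO1, chr10:104254642-104254891, plus strand: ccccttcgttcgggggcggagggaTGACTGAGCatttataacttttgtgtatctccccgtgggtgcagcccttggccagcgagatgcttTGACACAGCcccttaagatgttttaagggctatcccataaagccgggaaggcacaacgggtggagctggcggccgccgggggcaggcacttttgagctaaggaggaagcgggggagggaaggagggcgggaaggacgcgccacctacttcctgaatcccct
GSTA4, chr6:52995285-52995534, minus strand: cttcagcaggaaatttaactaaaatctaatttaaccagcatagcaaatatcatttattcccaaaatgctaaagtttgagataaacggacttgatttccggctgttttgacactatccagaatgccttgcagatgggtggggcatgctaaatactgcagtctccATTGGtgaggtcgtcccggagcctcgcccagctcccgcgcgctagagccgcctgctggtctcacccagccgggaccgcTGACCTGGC
GSTP1, chr11:67583562-67583811, plus strand: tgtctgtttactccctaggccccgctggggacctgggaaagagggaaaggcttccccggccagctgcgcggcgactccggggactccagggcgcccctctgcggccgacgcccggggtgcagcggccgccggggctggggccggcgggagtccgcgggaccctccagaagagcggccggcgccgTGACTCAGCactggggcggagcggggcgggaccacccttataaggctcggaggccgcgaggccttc

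The GSTO1 window held 2 matches to the antioxidant core, at bases 226 to 218 and 161 to 153 before the start, whereas the GSTO2 window held none and had 2 CCAAT boxes on its other strand. In GSTP1 the antioxidant core at bases 66 to 58 overlaps the match to the AP-1 site at bases 66 to 60. Promoter windows were found for 16 of the 21 genes. The antioxidant core was present in 5 of them (GSTA4, GSTM1, GSTM5, GSTO1 and GSTP1), against 11.1% of the 27305 promoters in the table. The xenobiotic core was present in 4 (GSTM3, GSTM4, GSTM5 and UGT8), against 31.9% of all promoters. The CCAAT box was present in 4 (GSTA4, GSTM2, GSTM3 and GSTO2), against 33.0%, and the AP-1 site in GSTP1 alone, against 6.57%. These are matches of letters in a short window and say nothing of binding.

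The deposited values were taken as log2 expression levels, and ran from 1.99 to 13.9 with array medians from 4.04 to 4.07. Over all features, r lay between 0.988 and 0.992 for pairs of arrays within a line and between 0.963 and 0.965 for SW620 against SW480 arrays. Of 13 measured colon epithelial markers, 4 rose and 3 fell in SW620, and their mean log2 level lay between 6.76 and 6.79 in SW620 and between 7.06 and 7.11 in SW480. The tight junction gene CLDN7 averaged 4.33 in SW620 and 8.22 in SW480 (14.8-fold lower), and the intestinal transcription factor CDX2 averaged 4.68 in SW620 and 6.22 in SW480 (2.90-fold lower). CLDN3 differed by -0.52, while VIL1, KRT19, KLF5 and KRT8 were higher in SW620 by 0.62, 0.51, 0.46 and 0.40. The median difference of the 13 markers, SW620 minus SW480 on the log2 scale, was -0.0022. The adhesion molecule EPCAM averaged 9.61 in SW620 and 9.71 in SW480, while the features of CDX1 and KRT20 were no brighter than the median feature (4.06). Among markers of cells that the cultures are not meant to hold, the mean log2 level of 10 endothelial markers lay between 3.74 and 3.81 in SW620 and between 3.78 and 3.82 in SW480, with 0 higher and 1 lower. It lay between 5.10 and 5.14 in SW620 and between 4.39 and 4.44 in SW480 for 9 leukocyte markers (3 higher, 1 lower), led by LCP1 at 9.21 in SW620 and 4.56 in SW480, while CD14, CD163, CD2 and TYROBP were below the median feature. It lay between 5.15 and 5.19 in SW620 and between 4.12 and 4.33 in SW480 for 4 fibroblast markers (2 higher, 0 lower), led by LUM at 7.95 in SW620 and 4.73 in SW480, with DCN below the median feature. For 15 hepatocyte markers it lay between 3.94 and 4.02 in SW620 and between 3.70 and 3.74 in SW480 (4 higher, 0 lower), led by FGA, which differed by 2.03, with APOA1 and APOB below the median feature. Markers counted as higher or lower passed limma's moderated test at an adjusted p below 0.05. Those were 53.8% of colon epithelial, 10% of endothelial, 44.4% of leukocyte, 50% of fibroblast and 26.7% of hepatocyte markers. Over all genes the share was 35.6%, with 49.8% of genes brighter than the median feature and 10.5% of the others. The part of these markers in the results below was not tested. In bulk RNA, fewer cells of a type and less RNA per cell cannot be told apart.

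Between the lines, GSTO2 and GSTK1 rose in SW620, while GSTO1, GSTA4, UGT8, GSTM2 and GSTM4 fell. These 7 of 21 genes passed limma's moderated test at an adjusted p below 0.05, which is 33.3%, beside 35.6% of all 14884 genes. The family was therefore called about as often as genes in general. By direction, 2 members rose, beside 16.0% of all genes, and 5 fell, beside 19.5%. A difference of at least 1.5-fold was reached by 4 members, GSTO2, GSTO1, GSTA4 and UGT8, beside 14.4% of all genes. The median difference, SW620 minus SW480 on the log2 scale, was -0.095 over the members and 0.013 over all genes.

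**Figure D1:**
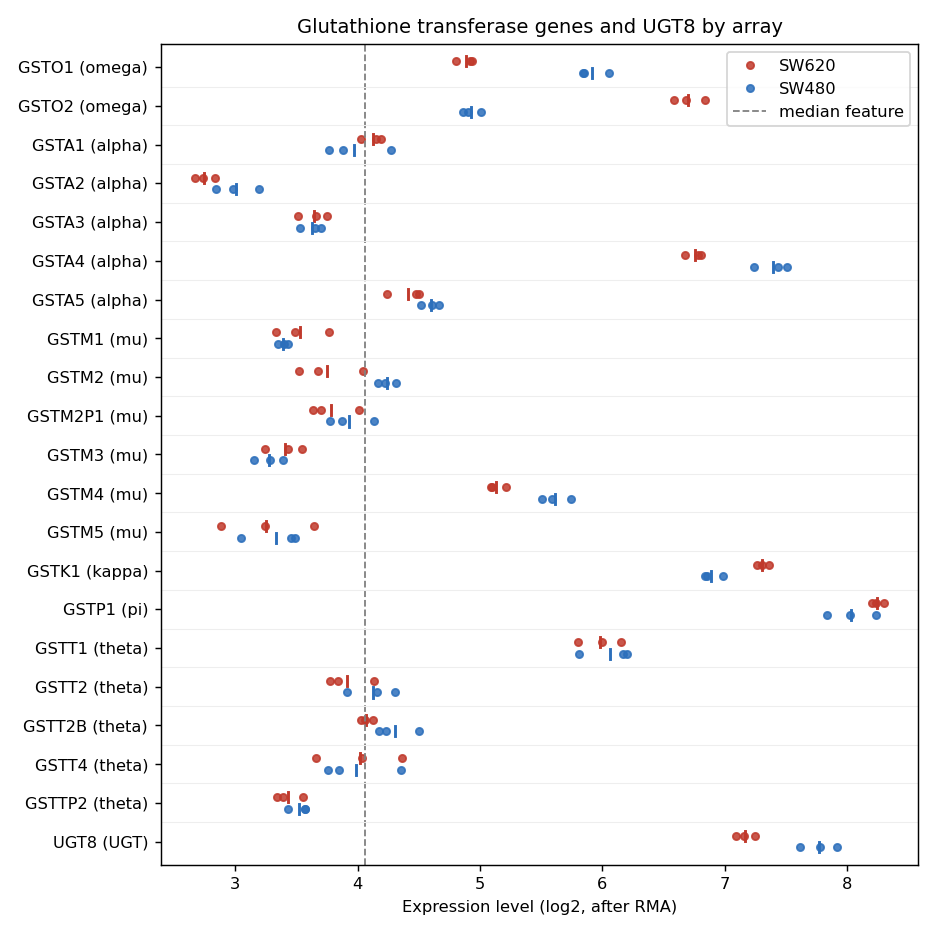
Log2 expression level after RMA (x axis) of the 20 glutathione transferase genes and UGT8 in the 3 SW620 arrays (red, upper row of each gene) and the 3 SW480 arrays (blue, lower row). Points are arrays, short vertical lines are the means of a line, and the dashed line is the median of all features (4.06). The arrays of the lines do not overlap for 10 of the 21 genes, beside 45.7% of all genes. The gaps are widest for GSTO2 and GSTO1. A mean no higher than the dashed line is seen for 11 of the 21 genes.

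Much of the family gave weak signal. Of the 21 features, 11 were no brighter on average than the median of all features on the array, and 5 of those (GSTA2, GSTM1, GSTM3, GSTM5 and GSTTP2) were below the 25th percentile feature (3.53). Among the 10 brighter members 6 passed the test, beside 49.8% of all genes brighter than the median feature. Among the 11 dimmer ones 1 passed, GSTM2, beside 10.5% of such genes. The arrays of the lines did not overlap for 10 members, beside 45.7% of all genes. Besides the 7 called genes these were GSTA2, GSTA5 and GSTT2B, each lower in all SW620 arrays than in any SW480 array without passing the test.

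The omega class showed the largest differences, in opposite directions for its 2 genes. GSTO2 encodes an enzyme with strong dehydroascorbate reductase activity, which returns oxidised vitamin C to its active form. Its log2 level was 6.58, 6.84 and 6.69 in SW620, against 5.01, 4.90 and 4.86 in SW480. Every SW620 array was above every SW480 array by a wide margin. The means were 6.70 ± 0.13 in SW620 and 4.92 ± 0.077 in SW480 (SD, n = 3 each), a difference of 1.78 (standard error 0.092), or 3.44-fold higher (limma, adjusted p = 7.42e-09). Its 95% interval ran from 1.58 to 1.98.

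GSTO1, the neighbouring gene, encodes a thiol transferase that also reduces dehydroascorbate and takes part in arsenic metabolism. Its level was 4.92, 4.80 and 4.93 in SW620, against 5.84, 6.06 and 5.85 in SW480. All SW620 arrays were below all SW480 arrays. The means were 4.89 ± 0.073 in SW620 and 5.92 ± 0.12 in SW480 (SD, n = 3 each), and the level fell by 1.03 on the log2 scale (standard error 0.091), which is 2.04-fold lower (limma, adjusted p = 1.23e-06). The omega genes were thus the only class here with a member called in each direction. MIR4482, a microRNA gene measured between them, averaged 6.59 in SW620 and 6.26 in SW480 and rose by 0.33 (limma, adjusted p = 0.0449). On the outer sides, MIR609 next to GSTO1 differed by -0.036 without passing, and CFAP58, the nearest measured gene beyond GSTO2 on chromosome 10, was dimmer than the median feature and differed by 0.0028 on the log2 scale.

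**Figure D2:**
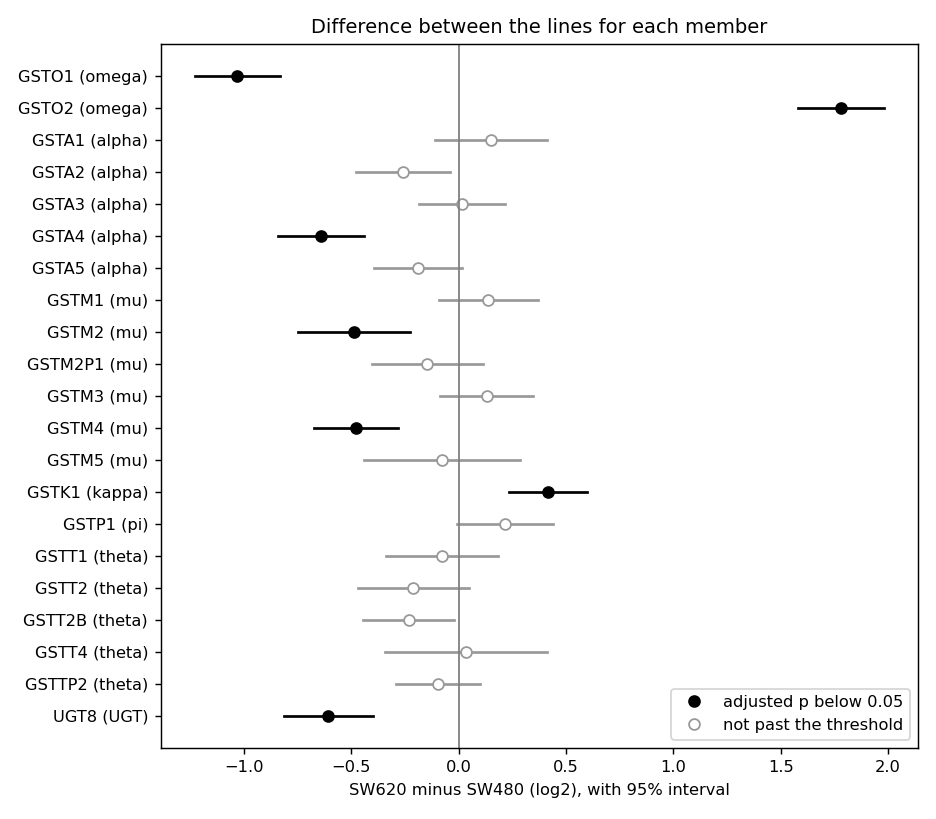
Difference between the lines for each of the 21 genes, SW620 minus SW480 on the log2 scale (x axis), with its 95% interval from limma. Filled points passed an adjusted p of 0.05 and open points did not. GSTO2 lies at 1.78 and GSTO1 at -1.03, the ends of the family, and the 14 open points lie between -0.26 and 0.22.

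In the alpha class, GSTA4 fell and the other 4 genes did not pass the test. GSTA4 conjugates 4-hydroxynonenal, a toxic product of lipid peroxidation, and is expressed in many tissues. Its level was 6.67, 6.81 and 6.78 in SW620, against 7.43, 7.51 and 7.24 in SW480. The ranges did not overlap, and the means were 6.75 ± 0.070 in SW620 and 7.39 ± 0.14 in SW480 (SD, n = 3 each). The level fell by 0.64 (standard error 0.093), or 1.56-fold (limma, adjusted p = 0.000117). Of the nearest measured genes on the sides of the alpha cluster on chromosome 6, CILK1 differed by -0.17 without passing (limma, adjusted p = 0.152) and TMEM14A rose by 0.86 in SW620 (standard error 0.092).

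GSTA1 and GSTA2, the main alpha enzymes of liver, are near-identical copies, and so are their promoters, which matched at 243 of 250 bases (97.2%). Probes for such copies can share signal, so their separate values are uncertain. GSTA1 had a level of 4.19, 4.15 and 4.03 in SW620, against 4.27, 3.88 and 3.76 in SW480. SW480 replicate 1 was the highest of the 6 arrays, and the difference of 0.15 did not pass the test. GSTA2 was among the dimmest features, with 2.67, 2.73 and 2.83 in SW620 and 2.84, 3.19 and 2.98 in SW480, and its difference of -0.26 missed the threshold (limma, adjusted p = 0.0637). Without SW480 replicate 1 both passed, GSTA1 at 0.30 (limma, adjusted p = 0.0360) and GSTA2 at -0.34 (limma, adjusted p = 0.0257). Other arrays moved them the other way, GSTA1 to 0.047 without SW480 replicate 3 (limma, adjusted p = 0.824) and GSTA2 to -0.16 without SW480 replicate 2 (limma, adjusted p = 0.271). GSTA3, known for steroid isomerisation in steroid-producing tissue, differed by 0.015 and GSTA5 by -0.19.

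In the mu class, GSTM4 and GSTM2 fell and the other 4 members did not pass. The mu enzymes conjugate epoxides and other carcinogen derivatives. The protein-coding genes lie in 1 cluster on chromosome 1, in the order GSTM4, GSTM2, GSTM1, GSTM5 and GSTM3. GSTM4 had a level of 5.10, 5.09 and 5.21 in SW620, against 5.59, 5.74 and 5.51 in SW480. The arrays did not overlap, and the means of 5.13 ± 0.068 in SW620 and 5.61 ± 0.12 in SW480 (SD, n = 3 each) differed by -0.48 (standard error 0.090), a 1.39-fold fall (limma, adjusted p = 0.000937).

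GSTM2 had a level of 3.52, 3.68 and 4.05 in SW620, against 4.23, 4.17 and 4.31 in SW480. SW620 replicate 3 came within a small distance of the lowest SW480 array, and the SW620 spread was the wider (3.75 ± 0.27 in SW620 and 4.24 ± 0.072 in SW480, SD, n = 3 each). It fell by 0.49 on the log2 scale (standard error 0.12), or 1.40-fold (limma, adjusted p = 0.00611). The SW620 mean was below the median feature, so the size of this fold is uncertain. The remaining mu genes, GSTM1, GSTM3, GSTM5 and the pseudogene GSTM2P1 on chromosome 6, differed by -0.15 to 0.14 with standard errors up to 0.17. Their arrays lay between 2.88 and 4.14, and none of these 4 was brighter than the median feature.

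GSTM1 is often deleted in the germline, and its feature gave 3.34, 3.49 and 3.77 in SW620 and 3.40, 3.43 and 3.35 in SW480. The SW480 arrays lay within the SW620 range. The mu genes are closely related copies as well. The GSTM1 and GSTM5 promoters matched at 221 of 243 aligned bases (90.9%), GSTM2 and GSTM5 at 185 of 228 (81.1%) and GSTM1 and GSTM2 at 184 of 232 (79.3%), and how far each signal comes from a related gene was not tested. The measured genes on either side of the cluster, AMPD2 and EPS8L3, rose by 0.40 (standard error 0.081) and 0.29 (standard error 0.094).

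GSTK1, the kappa enzyme of mitochondria and peroxisomes, rose modestly. Its level was 7.36, 7.26 and 7.30 in SW620, against 6.98, 6.85 and 6.84 in SW480. All SW620 arrays were above all SW480 arrays, with means of 7.31 ± 0.050 in SW620 and 6.89 ± 0.080 in SW480 (SD, n = 3 each). The difference was 0.42 (standard error 0.084), or 1.34-fold (limma, adjusted p = 0.00150). TMEM139, its nearest measured neighbour on one side, fell by 0.41 (standard error 0.098), and PIP on the other side was dim and differed by 0.046.

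GSTP1, the pi enzyme, was read by the brightest feature of the family and did not pass the test. It conjugates many anticancer drugs and binds the stress kinase JNK. Its level was 8.24, 8.21 and 8.30 in SW620, against 8.23, 8.02 and 7.84 in SW480. SW480 replicate 1 lay within the SW620 range and the other SW480 arrays below it. The means were 8.25 ± 0.049 in SW620 and 8.03 ± 0.20 in SW480 (SD, n = 3 each). The difference of 0.22 had a 95% interval from -0.0054 to 0.44 (limma, adjusted p = 0.125). Leaving out single SW480 arrays moved this value: without SW480 replicate 1 the difference was 0.32 (limma, adjusted p = 0.0273), and without SW480 replicate 3 it was 0.12 (limma, adjusted p = 0.432).

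Of the 5 theta genes, 0 passed the adjusted threshold in limma, beside 35.6% of all genes. GSTT2B had the smallest limma p of the 5 (0.0350 before adjustment, limma adjusted p = 0.0871). Theta enzymes act on small halogenated compounds, and GSTT1 is, like GSTM1, often deleted in the germline. GSTT1 had a level of 6.154, 5.996 and 5.800 in SW620, against 6.173, 6.201 and 5.813 in SW480. The lines overlapped, and the difference of -0.079 had a 95% interval from -0.34 to 0.18. Its size and sign depended on single arrays, with -0.20 without SW480 replicate 3, -0.16 without SW620 replicate 1, -0.023 without SW480 replicate 1, -0.0094 without SW480 replicate 2 and 0.013 without SW620 replicate 3, and it passed in none of these. Differences within that interval were not resolved with 3 technical replicates a line, and the interval leaves out the spread between separate cultures. GSTT2 and GSTT2B, near-identical copies on chromosome 22 of which the gene table lists GSTT2 as a transcribed pseudogene, differed by -0.21 and -0.23. GSTT4 differed by 0.034 and the pseudogene GSTTP2 by -0.095.

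UGT8, the ceramide galactosyltransferase and the 1 UDP-glycosyltransferase gene with a symbol in the annotation used, fell in SW620. Its level was 7.09, 7.25 and 7.16 in SW620, against 7.62, 7.92 and 7.78 in SW480. The arrays did not overlap, with means of 7.17 ± 0.080 in SW620 and 7.77 ± 0.15 in SW480 (SD, n = 3 each). It fell by 0.61 (standard error 0.096), or 1.52-fold (limma, adjusted p = 0.000233). CAMK2D, the nearest measured gene on one side of UGT8 on chromosome 4, went the other way and rose by 1.01 (standard error 0.082). MIR577, the next measured gene in the order of start positions, differed by -0.12 without passing (limma, adjusted p = 0.371). That order does not tell a gene beyond UGT8 from one lying within it.

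**Figure D3:**
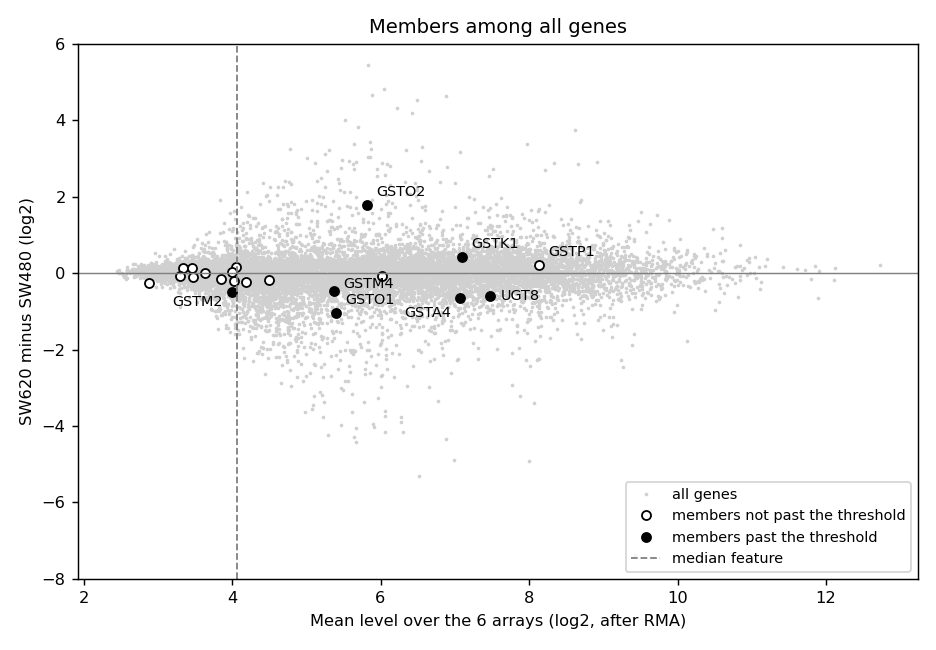
Mean log2 level over the 6 arrays (x axis) against the difference SW620 minus SW480 on the log2 scale (y axis) for all 14884 genes (grey) and the 21 members (circles, filled where the adjusted p was below 0.05). The dashed line is the median feature. All but 1 of the filled circles lie to its right, the exception being GSTM2, and GSTO2 stands highest of the members.

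All genes said below to have risen or fallen passed limma's test at the adjusted threshold of 0.05. The cytosolic enzymes work beside microsomal glutathione transferases, which are a separate protein family, and depend on genes that make, recycle and break down glutathione. MGST1, a membrane enzyme that detoxifies lipid peroxides, rose 1.68-fold (0.75, standard error 0.091). MGST2, which can also make leukotriene C4, fell 2.98-fold, with levels of 4.51, 4.53 and 4.67 in SW620 against 6.21, 6.12 and 6.11 in SW480. MGST3 fell by 0.50 on the log2 scale. The microsomal genes were therefore split in direction. MGST3, GSR, GSS, GGT5 and GGT6 are given for their role in this pathway and were chosen after their values were seen. GSR, the reductase that regenerates glutathione, rose by 0.33, and GSS, the synthetase that completes it, differed by -0.045 without passing the test. GGT7, a relative of the glutamyl transferases that cleave glutathione, rose 3.16-fold, and GGCT, a cyclotransferase of glutathione breakdown, fell by 0.59, whereas GGT5 and GGT6 did not pass. Of the 28 measured genes on the list of other conjugating enzymes and cofactor supply, 4 rose, 6 fell and 18 did not pass, and their median difference was 0.0056. The share that passed was 35.7%, beside 35.6% of all genes.

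**Figure D4:**
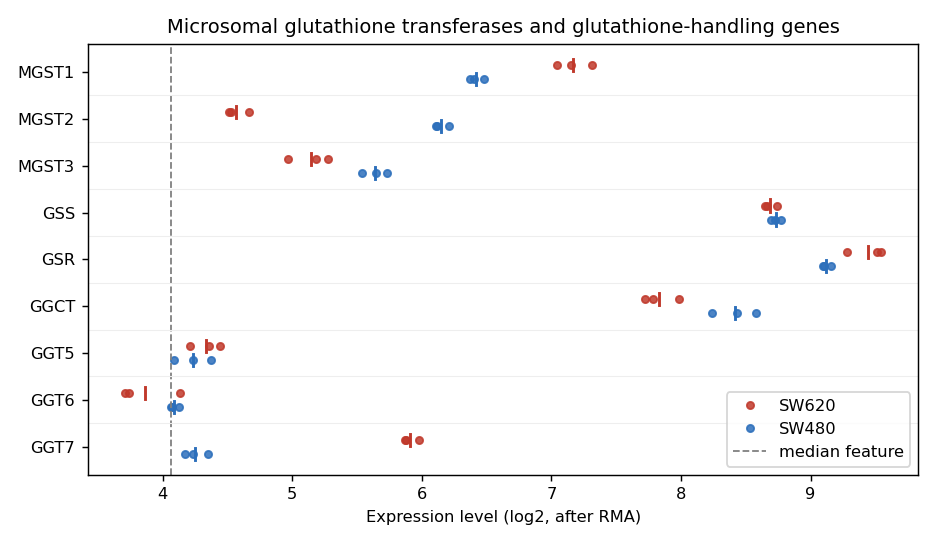
Log2 expression level (x axis) of microsomal glutathione transferases and glutathione-handling genes in the 3 SW620 arrays (red, upper) and the 3 SW480 arrays (blue, lower). Points are arrays, short vertical lines are means, and the dashed line is the median feature. MGST2 is lower in SW620 (4.57) than in SW480 (6.14), while GGT7 is higher in SW620 (5.91) than in SW480 (4.25).

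Among regulators known to act on these enzymes, NFE2L2 and AHR fell and KEAP1 did not pass. NFE2L2 encodes NRF2, the factor that binds antioxidant response elements, and it fell 1.48-fold, with means of 7.34 ± 0.12 in SW620 and 7.91 ± 0.079 in SW480 (SD, n = 3 each). Its inhibitor KEAP1 averaged 7.72 ± 0.044 in SW620 and 7.73 ± 0.14 in SW480 (SD, n = 3 each). Of 21 measured NRF2 regulators and antioxidant targets, 2 rose, 8 fell and 11 did not pass, with a median difference of -0.19. All 21 were brighter than the median feature, and the 47.6% that passed stand beside 49.8% of all such genes, so the list was called about as often as other bright genes. The carbonyl reductases CBR3 and CBR1 fell 2.67-fold and 1.96-fold, NAMPT, which makes NAD, fell 1.95-fold, and the biliverdin reductase BLVRB fell 1.79-fold. The SW620 mean of CBR3 (4.05) was below the median feature (4.06), so the size of its fold is uncertain. TXNRD1, SRXN1 and HMOX1, well-known NRF2 targets named here after their values were seen, differed by -0.037, -0.041 and -0.20 and did not pass.

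AHR, the receptor that binds xenobiotic response elements, fell by 0.40 (9.11 ± 0.026 in SW620 and 9.51 ± 0.069 in SW480, SD, n = 3 each). Of 10 measured xenobiotic receptors and partners 2 rose and 4 fell, with a median difference of -0.089. The fatty acid receptors PPARD and PPARA were 2.91-fold and 2.70-fold lower, the orphan receptor RORA was 2.27-fold lower, and PPARG, a receptor of fat storage and epithelial differentiation, was 1.80-fold higher. Among 18 measured genes of electron supply to P450 enzymes and of haem handling, 2 rose and 7 fell, with a median difference of -0.031. CYB5R2, a cytochrome b5 reductase, was 2.57-fold lower, the mitochondrial cytochrome b5 gene CYB5B was 2.08-fold higher, and the biliverdin reductase BLVRA was 1.99-fold lower. Of 28 other phase I enzymes, 3 rose and 8 fell, with a median difference of 0.0035. PTGR1, which reduces prostaglandins and reactive aldehydes, was 7.03-fold lower, the dehydrogenase DHRS2 was 5.15-fold lower, and the monoamine oxidase MAOB was 4.65-fold lower. The SW620 means of PPARA (3.33), MAOB (3.38), CYB5R2 (3.94) and DHRS2 (4.06) were no higher than the median feature (4.06). The sizes of the folds of these genes are therefore uncertain. Of 25 genes of retinoid and steroid handling, 5 rose and 6 fell, with a median difference of -0.012. The retinoic acid carrier CRABP2 was 4.78-fold lower and the retinol transporter STRA6 2.47-fold lower, while HSD11B2, which inactivates cortisol, was 3.37-fold higher and the retinol dehydrogenase RDH10 2.47-fold higher. Of the transporter list 2 of 32 genes had a symbol in the annotation used and 0 passed. SLC51B, a subunit of a bile acid exporter and the one with the smaller limma p, differed by -0.070. Over whole lists, 60% of receptors and partners, 50% of electron supply and haem genes and 39.3% of other phase I enzymes passed. So did 44% of retinoid and steroid genes, beside 35.6% of all genes. Among listed genes brighter than the median feature, 5 of 7 receptors and partners, 8 of 17 electron supply and haem genes, 10 of 15 other phase I enzymes, 10 of 18 other conjugating and cofactor genes and 10 of 15 retinoid and steroid genes passed, beside 49.8% of all such genes.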

How the data were processed

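Per the submitters' processing notes, the deposited log2 expression values were made with Partek and RMA, a method that usually corrects background, equalises arrays and summarises probes. No source used here gives the versions, the settings or the log base, and base 2 was taken from the range of the values. Of 53616 features, 16098 had 1 gene symbol in the platform annotation, 0 had several and 37518 were unnamed here. A gene is called measured where a feature carried its symbol, and unnamed features may read other genes. The feature with the highest mean stood for a gene. Detection calls were not used, and RMA can understate the folds of dim genes.

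Each gene's difference, SW620 minus SW480, came from a fit without covariates (limma 3.58.1, lmFit and eBayes, R 4.3.3), tested two-sided with Benjamini-Hochberg adjustment over all 14884 genes. The fit was tested on simulated data. The number of arrays limits the precision, and technical replicates leave the spread between separate cultures unmeasured.

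Members, gene lists and tests were chosen with earlier results of these data known. Named by rule are members past the threshold with 1.5-fold or more, up to 3 with less, the brightest member and the brightest not passing. Other members are given beyond this rule, with their values known. Among these are the array values of GSTA1, GSTA2, GSTM1 and GSTT1 and the test of GSTT2B. From each of the 7 lists up to 4 changed genes are named, or the one with the smallest p, and also AHR, NFE2L2 and KEAP1. The other regulators that rule asks for were not analysed here. Genes next to the members and a few glutathione genes were chosen after their values were seen. Neighbours were found by start position alone, so one may overlap a member. For the 5 marker lists only counts, shares, mean levels, the median difference of 1 list and some markers chosen afterwards are given.

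Alternatives were centring on the median or the 75th percentile feature, repeated quantile normalization, filters at the 25th percentile and the median feature, a trended and robust variance, the mean of a gene's features, the replicate number as a block and leaving out each array. Promoters were compared by global alignment (Biopython 1.88), and pairs with at least 225 aligned bases are given.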

Additional observations from a re-analysis of the deposited data

How the results depend on the processing

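The 5 falls and the 2 rises of members kept their direction under all 14 alternatives, and the genes stayed past the threshold in each, except that GSTM2 was removed by the filter at the median feature. The difference of GSTO2 ran from 1.71 to 1.84, that of GSTO1 from -1.07 to -0.96, GSTA4 from -0.72 to -0.58, UGT8 from -0.68 to -0.53, GSTM4 from -0.53 to -0.41, GSTM2 from -0.64 to -0.37 and GSTK1 from 0.39 to 0.46. Without single arrays, the members called higher ran from 2 to 4 and those called lower from 5 to 6, and glutathione transferases called higher ran from 2 to 4 and lower from 4 to 5. The 4 came from leaving out SW480 replicate 1, which added GSTA1, GSTP1 and, among the falls, GSTA2. GSTA2 also passed after repeated quantile normalization (-0.29, limma, adjusted p = 0.0410) and with a trended and robust variance (limma, adjusted p = 0.0388). Over all genes 2388 rose and 2905 fell, and 2686 rose and 2685 fell with centring on the 75th percentile feature, which shifted the median of all genes to 0.040. Among the named genes, signs turned for KEAP1 and SLC51B, which did not pass. KEAP1 went to 0.023 with that centring, and without single arrays KEAP1 ran from -0.083 to 0.051 and SLC51B from -0.23 to 0.062.

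The replicate numbers were shared between the lines, but arrays with the same number did not deviate together (correlations of deviations -0.0071, -0.030 and -0.019). With the replicate block 5215 genes were called in place of 5293, and the same 7 members. Dim features limit what can be said of the 11 members at or below the median feature.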
